A study of Drosophila melanogaster with 35 samples.

Results

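In wild-type flies, 292 windows of the Drosophila autosomes replicated early in follicle cells of the ovary and late in wing imaginal discs. The table gives replication timing (RT) per window of 100 kb, at a slide of 10 kb, as log2 of S phase over G1 coverage, where a higher value means earlier replication. Windows were taken on the chromosome arms outside pericentric heterochromatin, with midpoints on 2L below 21.35 Mb, on 2R above 5.7 Mb, on 3L below 22 Mb and on 3R above 5.2 Mb of the dm6 genome. Of 8980 such arm windows, among 13391 windows in all, those were kept that lay at or above the 75th percentile of wild-type mitotic follicle cells (0.078) and at or below the 25th percentile of wild-type wing discs (-0.029). The 292 windows made up 3.25% of the arm windows. These profiles therefore chose the windows, and their values are given as a description only. The other 7 conditions were not used in the choice.

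The study profiled S phase nuclei sorted by DNA content from adult ovaries and from wing discs of female larvae of the third instar, with 2 S phase samples per condition. Follicle cells came from Rif1[1]/Rif1[2] females (Rif1 null), from Rif1[PP1]/Rif1[1] females (Rif1PP1, with a mutated PP1 binding motif over a null allele), from Rif1[2]/CyO females (heterozygotes, with the CyO balancer as the other second chromosome) and from Oregon-R females (wild type). Wing discs came from Rif1[1]/Rif1[2], Rif1[PP1]/Rif1[1] and Yellow-white (wild-type) larvae. Mitotic follicle cells were the nuclei between the 2C and 4C peaks and endocycling follicle cells those between the 4C and 8C peaks, and the 2C to 4C gate also admits cells in their first endocycle. Each condition was deposited as 1 mean per window, so values here have neither SD nor replicate check, no p-value can be had, and how many reads stand behind a window is unknown. Follicle and wing disc samples also differ in wild-type strain, library kit and sequencer, and their effect and that of the tissue cannot be told apart.

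Replication forks start from origins where the MCM helicase is loaded in G1 phase and switched on in S phase by kinases. Rif1 binds protein phosphatase 1 (PP1), which removes the activating phosphates, and is known for delaying origin firing from yeast to humans. Follicle cells are the epithelium around the germline cysts of the ovary, which first divide, then endocycle and secrete the eggshell. The wing disc is the larval epithelium that forms the adult wing and notum.

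The windows carry no sequence label of their own, so a few stretches are printed to show the kind of DNA they hold. The first 2 are 200 bases each, taken without exons at or near the centre of 2 regions of joined windows: the kuz region, where every window kept its tissue difference in both mutants, and the Mp region, which holds the most windows. These were chosen after their values were seen. Both are on the plus strand of dm6, read from RefSeq. The kuz stretch lies at chr2L:13514901-13515100 in an intron of B4, and the Mp stretch at chr3L:7158901-7159100 between genes. Their GC contents were 41.5% and 26.0%, against 40.7% and 42.8% in the whole regions. The last 2 are the 200 bases before the annotated starts of Vm34Ca (chr2L:13411632-13411831, minus strand) and ndl (chr3L:6603367-6603566, minus strand), the genes for eggshell proteins that lie in these windows. Capitals mark TATAAA, searched on both strands of all 4 and found once, 29 bases before the start of Vm34Ca, and neither TATAAA nor TATCGATA was found in the ndl stretch on either strand.
kuz region: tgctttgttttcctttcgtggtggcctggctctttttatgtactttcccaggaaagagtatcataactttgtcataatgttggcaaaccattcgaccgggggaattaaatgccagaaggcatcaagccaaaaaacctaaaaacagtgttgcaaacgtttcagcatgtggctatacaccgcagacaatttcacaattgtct
Mp region: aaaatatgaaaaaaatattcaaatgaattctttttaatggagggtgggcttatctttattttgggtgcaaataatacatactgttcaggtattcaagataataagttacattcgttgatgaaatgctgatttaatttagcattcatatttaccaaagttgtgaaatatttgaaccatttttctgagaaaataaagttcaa
Vm34Ca upstream: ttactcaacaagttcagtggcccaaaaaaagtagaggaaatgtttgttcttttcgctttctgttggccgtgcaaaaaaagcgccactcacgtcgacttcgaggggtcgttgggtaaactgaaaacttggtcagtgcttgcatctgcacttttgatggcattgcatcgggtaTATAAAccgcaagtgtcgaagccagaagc
ndl upstream: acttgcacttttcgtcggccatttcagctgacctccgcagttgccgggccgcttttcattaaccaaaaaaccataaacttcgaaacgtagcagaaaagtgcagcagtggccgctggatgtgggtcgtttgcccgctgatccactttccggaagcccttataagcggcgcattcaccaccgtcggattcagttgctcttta

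In Rif1 null endocycling follicle cells the windows lay near the middle of the arm windows, in Rif1 null mitotic follicle cells they kept part of their early rank, and in wild-type endocycling follicle cells they kept it. Rif1PP1 mitotic follicle cells had a median of 0.10, which was the 81.4th percentile of arm windows, and 195 windows were in the top quartile. Rif1 null mitotic follicle cells had a median of 0.027, at the 73.3rd percentile, with 137 windows in the top quartile and 6 in the bottom quartile. Heterozygous mitotic follicle cells had a median of 0.061 at the 71.7th percentile, with 128 windows in the top and 10 in the bottom quartile. Rif1 null endocycling follicle cells had a median of -0.034 at the 43.3rd percentile, with 62 windows in the top quartile and 69 in the bottom quartile. Windows early in both wild-type tissues had median percentiles of 84.7 in Rif1 null mitotic and 67 in Rif1 null endocycling follicle cells. How far such a shift toward the middle follows from choosing windows at their wild-type extremes was not tested.

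In wild-type mitotic follicle cells, by which they were chosen, their values ran from 0.078 to 0.40 with a median of 0.12. Wild-type endocycling follicle cells had a median of 0.10, and 259 of the 292 windows (88.7%) fell in the top quartile of all arm windows there. Among the 833 arm windows that were early in both wild-type tissues, chosen by the same limit in follicle cells, 78.4% fell in that top quartile. None of the 292 windows was below 0 in endocycling cells of wild type, where the lowest was at 0.009. Of the 833 windows early in both tissues, 829 were above 0 there, as were 55.8% of all arm windows.

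The wing disc values stayed low. Rif1 null wing discs had a median of -0.036 (23.7th percentile), and 151 of the 292 windows were in the bottom quartile while 3 were in the top quartile. Rif1PP1 wing discs had a median of -0.013 (34.2nd percentile), with 110 windows in the bottom and 18 in the top quartile. Wild-type wing discs, which chose the windows, ran from -0.18 to -0.030 with a median of -0.054. For 138 windows the highest of the 9 values was in wild-type mitotic follicle cells, for 82 in Rif1PP1 mitotic follicle cells, and for none in a wing disc. The lowest value was in wild-type wing discs for 122 windows and in Rif1 null endocycling follicle cells for 94. The wild-type mitotic follicle cell and wing disc columns chose the windows, which favours them in these counts. Over all arm windows the Rif1 null endocycling profile had the widest spread, with an SD of 0.14. The same counts over all arm windows were not made, so these describe the chosen windows only.

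**Figure D1:**
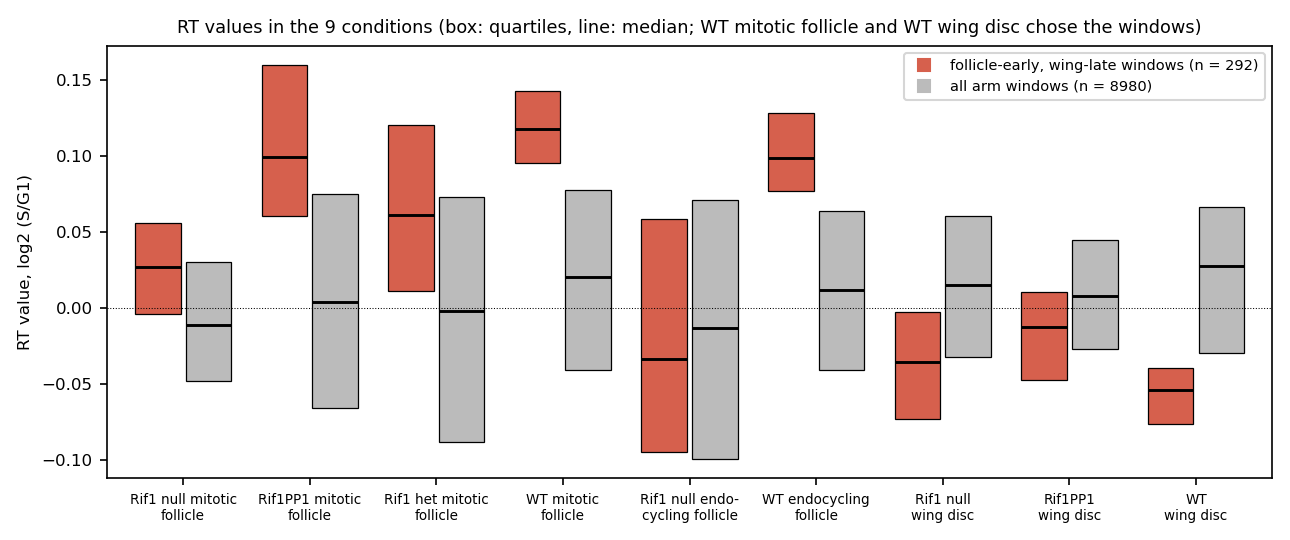
RT values, as log2 S/G1 ratios, of the 292 follicle-early, wing-late windows (red) beside all 8980 arm windows (grey) in each of 9 conditions, with boxes from the lower to the upper quartile and lines at the median. The red medians lie above the grey ones in all follicle cell conditions except Rif1 null endocycling cells, where they are -0.034 and -0.013, and below them in the 3 wing disc conditions.

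The question for the mutants was whether the difference between the tissues remained without Rif1 or without its PP1 motif. Each mutant follicle cell profile was set against the wing discs of the same genotype, none of which took part in the choice of windows. The Rif1PP1 difference, mitotic follicle cells minus wing discs, had a median of 0.13 over the 292 windows, beside -0.002 over all arm windows. It was over 0.1 in 180 windows (61.6%), against 15.1% of all arm windows. The Rif1 null difference had a median of 0.068, beside -0.021 over all arm windows, and was over 0.1 in 99 windows (33.9%), against 6.95% of all arm windows. In 242 windows (82.9%) the Rif1 null difference was above 0, against 39.7% of all arm windows. No window was below -0.1 in the null, against 17.5% of all arm windows, or in Rif1PP1, against 19.4%.

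Of the 99 windows over 0.1 in the null, 97 were also over 0.1 in Rif1PP1, against 508 of 624 among all arm windows. Both differences were over 0.1 in 97 windows (33.2%), against 5.66% of all arm windows. Rif1PP1 alone was over 0.1 in 83 windows, the null alone in 2, and 110 were over 0.1 in neither. Among all 8980 arm windows, 1359 were over 0.1 in Rif1PP1, 624 in the null and 508 in both. Over the arm windows the mitotic follicle cell profile had an SD of 0.074 in the null and 0.11 in Rif1PP1, and the wing disc profile 0.070 in the null and 0.055 in Rif1PP1. When each profile was centred on its arm median, 139 windows (47.6%) were over 0.1 in the null, against 11.5% of all arm windows, and 185 (63.4%) in Rif1PP1, against 16.2%. When each was also scaled to the same SD, 174 windows (59.6%) were over 0.1 in the null, against 18.0% of all arm windows, and 177 (60.6%) in Rif1PP1, against 17.5%. The gap between the mutants in number of windows was thus smaller after centring and smaller again after scaling.

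**Figure D2:**
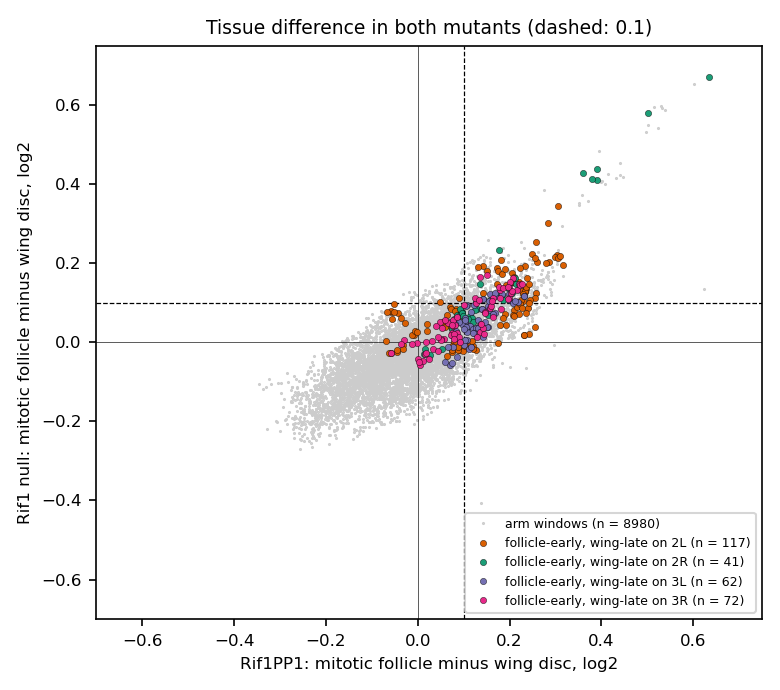
Difference between mitotic follicle cells and wing discs in Rif1 null flies (vertical axis) and in Rif1PP1 flies (horizontal axis), both in log2 units, for the 292 windows coloured by chromosome arm and for all arm windows in grey (5 grey windows lie outside the axes). Dashed lines mark 0.1, and 97 coloured windows lie beyond both of them, and a window of the region after Pld is the highest of the 292 on each axis.

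Endocycling follicle cells of the null gave a different picture from mitotic ones. Rif1 null endocycling follicle cells minus Rif1 null wing discs had a median of 0.009 over the 292 windows, beside -0.027 over all arm windows. The difference was over 0.1 in 65 windows (22.3%), against 17.0% of all arm windows, and below -0.1 in 45 windows (15.4%), against 29.0%. For wild type, the comparisons share the wing disc column that chose the windows. All 292 were over 0.1 in mitotic follicle cells, against 16.7% of all arm windows. In endocycling follicle cells 283 (96.9%) were, against 14.0% of all arm windows. The heterozygous difference against wild-type wing discs was over 0.1 in 189 windows (64.7%), against 12.8% of all arm windows. All 6 differences, 3 of which use columns that chose the windows, were over 0.1 in 31 of the 292 windows, against 96 of all arm windows (1.07%).

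The mirror class, 328 arm windows early in wild-type wing discs and late in wild-type follicle cells, was chosen by limits of the same kind. Of these, 238 (72.6%) were below -0.1 in the Rif1 null mitotic difference, against 17.5% of all arm windows, and 212 (64.6%) in the Rif1PP1 difference, against 19.4%.

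The 292 windows joined into 53 regions where they overlapped, and because neighbours share 90 kb, windows are not independent. The regions covered 8.34 Mb, 9.27% of the 89.98 Mb of arm sequence. Their median length was 130 kb and the longest was 340 kb. There were 15 single windows, 15 regions of 2 to 4 windows and 23 regions of 5 or more, which held 234 windows. The 10 regions with the most windows held 142 windows (48.6%). Regions are called below by the longest protein-coding gene that lies wholly inside them, and the 1 region that holds none by Pld, at its edge.

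Chromosome arm 2L held 117 windows (5.49% of its arm windows) in 18 regions, 3L held 62 (2.82%) in 8, 3R held 72 (2.67%) in 19 and 2R held 41 (2.09%) in 8. The median Rif1PP1 difference was 0.17 on 2L, 0.13 on 2R, 0.12 on 3L and 0.092 on 3R, and the median Rif1 null difference was 0.078 on 2L, 0.082 on 2R, 0.046 on 3L and 0.044 on 3R. Over all windows of an arm the Rif1PP1 medians were 0.048 on 2L, -0.051 on 2R, -0.003 on 3L and -0.006 on 3R. The Rif1 null medians over all windows were 0.012 on 2L, -0.032 on 2R, -0.049 on 3L and -0.017 on 3R. The arms themselves were thus shifted, and the order of the arms in the chosen windows includes that shift. Heterozygous follicle cells had a median RT value over the chosen windows of 0.10 on 2L and -0.017 on 2R. Rif1 null endocycling follicle cells had 0.063 on 2R, -0.009 on 2L, -0.054 on 3R and -0.091 on 3L. The heterozygous difference against wild-type wing discs had a median of 0.15 on 2L and 0.064 on 2R over the chosen windows. Over all windows of these arms this difference had a median of 0.033 on 2L and -0.093 on 2R. Heterozygotes carried the CyO balancer, and its part in these values was not tested.

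Averaged over the 23 larger regions, the mitotic follicle cell profiles formed a peak, though in the mutants not every region did so. Rif1PP1 mitotic follicle cells had 0.13 at the region centre, 0.083 at 200 kb before it and 0.055 at 200 kb after it. Rif1 null mitotic follicle cells had 0.060 at the centre and 0.014 and 0.007 at these distances. Wild-type mitotic follicle cells had 0.13 at the centre, as in Rif1PP1, but -0.012 and 0.003 beside it. Rif1 null endocycling follicle cells were below 0 at these places, with -0.024 at the centre and -0.062 and -0.040 beside it. Farther out, at 550 kb before and after the centre, they had 0.023 and 0.010. In wing discs the same places formed a shallow trough, with -0.051 in the null, -0.022 in Rif1PP1 and -0.063 in wild type at the centre. The region after Pld is 1 of the 23, and its central window was not among those chosen. That window had 0.60 in Rif1 null, 0.61 in Rif1PP1 and 0.004 in wild-type mitotic follicle cells. It raised both mutant averages at the centre. Over all 53 regions, the mean was compared with that of windows within 200 kb on either side. It was higher in 36 for Rif1 null mitotic, 25 for Rif1 null endocycling and 36 for Rif1PP1 follicle cells. For heterozygous, wild-type mitotic and wild-type endocycling follicle cells it was higher in 38, 48 and 46. Among the 23 larger regions the counts were 15 for Rif1 null mitotic, 13 for Rif1 null endocycling and 13 for Rif1PP1. They were 15 for heterozygous, 23 for wild-type mitotic and 22 for wild-type endocycling follicle cells.

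**Figure D3:**
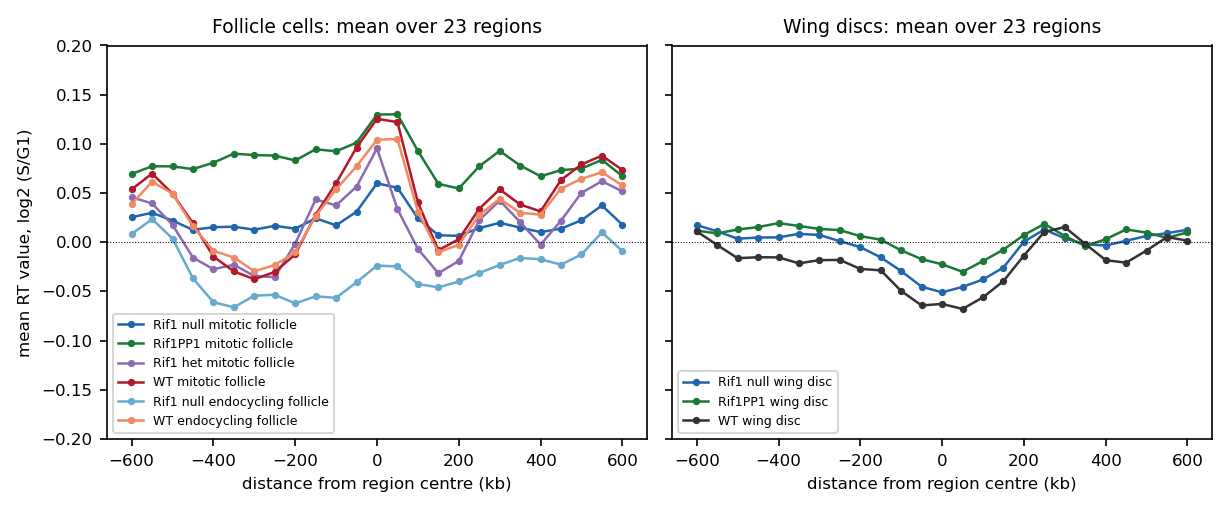
Mean RT value, as log2 S/G1 ratio, over the 23 regions of 5 or more windows against distance from the region centre in kb, for 6 follicle cell conditions (left) and 3 wing disc conditions (right). The follicle cell peak at the centre stands on a high plateau in Rif1PP1 (0.083 at 200 kb before the centre) and on a low base in wild type (-0.012).

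The kuz region on 2L (chr2L:13360001-13670000, 16 windows) kept the tissue difference in every window in both mutants. It holds 43 protein-coding genes, among them kuz, which encodes an ADAM metalloprotease that cleaves Notch, the long genes CG42784 and B4, and Vm34Ca, which encodes a vitelline membrane protein of the eggshell. Mean RT values were 0.054 in Rif1 null mitotic, -0.016 in Rif1 null endocycling, 0.16 in Rif1PP1, 0.16 in heterozygous, 0.11 in wild-type mitotic and 0.13 in wild-type endocycling follicle cells. Wing discs had -0.10 in the null, -0.044 in Rif1PP1 and -0.089 in wild type. All 16 windows were over 0.1 in both mutant differences, whose means were 0.16 in the null and 0.21 in Rif1PP1. Rif1 null endocycling values varied most along the region, between -0.20 and 0.37. The highest of them was in the window nearest to Vm34Ca, which had 0.37 in Rif1 null endocycling and 0.14 in Rif1 null mitotic follicle cells. The same window had 0.22 in endocycling and 0.12 in mitotic follicle cells of wild-type flies.

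The CycE region (chr2L:15650001-15840000, 9 windows) falls outside the rule for named regions and is given because CycE is on the list of replication genes. CycE encodes Cyclin E, which drives entry into S phase in mitotic cycles and in endocycles. All 9 windows were over 0.1 in both mutant differences, with means of 0.21 in the null and 0.29 in Rif1PP1. Follicle cells had mean values of 0.12 in Rif1 null mitotic, 0.007 in Rif1 null endocycling, 0.26 in Rif1PP1, 0.29 in heterozygous, 0.19 in wild-type mitotic and 0.15 in wild-type endocycling cells. Wing discs had -0.096 in the null, -0.030 in Rif1PP1 and -0.053 in wild type. The DNA within 200 kb was early in Rif1PP1 mitotic follicle cells (0.17) and late in wild-type ones (-0.050).

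A similar contrast with the surroundings was seen in the rdo region (chr2L:17980001-18220000, 14 windows), which also holds Socs36E, an inhibitor of JAK/STAT signalling, and kel, whose product lines the ring canals of the germline. Rif1PP1 mitotic follicle cells had 0.22 in the region and 0.22 in the flanks, and Rif1 null mitotic ones 0.069 and 0.035. In wild-type mitotic follicle cells the region had 0.17 and its flanks -0.18. All 14 windows were over 0.1 in the Rif1PP1 difference (mean 0.22) and 5 in the null difference (mean 0.087). Wing disc means were -0.018 in the null, 0.0003 in Rif1PP1 and -0.055 in wild type.

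The scrib region on 3R (chr3R:26380001-26650000, 12 windows) holds scrib, which encodes a scaffold of epithelial polarity, and plum. Rif1 null mitotic follicle cells had -0.033, and Rif1 null wing discs had -0.14, the lowest mean of the 13 named regions for null wing discs. Rif1PP1 mitotic follicle cells had 0.077 and Rif1PP1 wing discs -0.12. The wild-type values were 0.16 (follicle) and -0.086 (wing). Rif1PP1 differences were over 0.1 in all 12 windows and null differences in 9. The CG31323 region lies 40 kb away on the same arm (chr3R:26130001-26340000, 12 windows), and there Rif1PP1 was over 0.1 in 8 windows and the null in 3.

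On 3L, the Mp region (chr3L:6990001-7330000) was the longest, with 20 windows and 36 protein-coding genes. Mp encodes a collagen of the multiplexin kind, and Dscam2 in the same region encodes an adhesion molecule of the nervous system. Follicle cells had means of 0.006 in Rif1 null mitotic, 0.018 in Rif1 null endocycling, 0.077 in Rif1PP1, 0.003 in heterozygous, 0.13 in wild-type mitotic and 0.098 in wild-type endocycling cells. Wing discs had -0.035 in the null, -0.018 in Rif1PP1 and -0.057 in wild type. No window was over 0.1 in the null mitotic difference (mean 0.041), while 11 were in Rif1PP1 (mean 0.096). The sfl region (chr3L:6480001-6720000, 15 windows), with sfl, which encodes an enzyme of heparan sulfate synthesis, and ndl, which encodes a protease that follicle cells secrete, had means of 0.009 in the null difference and 0.10 in the Rif1PP1 difference. The window nearest to ndl had -0.004 in Rif1 null mitotic, 0.11 in Rif1PP1 and 0.12 in wild-type mitotic follicle cells.

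In the Rbfox1 region (chr3L:10420001-10630000, 12 windows) the mitotic and endocycling cells of the null parted. Rbfox1, which encodes an RNA-binding regulator of splicing, spans 113 kb of it. Rif1 null endocycling follicle cells had a mean of -0.23, between -0.27 and -0.19, and Rif1 null mitotic ones 0.032, between 0.015 and 0.047. Both ranges are over overlapping windows of 1 mean profile, so they measure no spread between replicates. Over all arm windows the SD was 0.14 in Rif1 null endocycling and 0.074 in Rif1 null mitotic follicle cells. Rif1PP1 mitotic follicle cells had 0.17, wild-type mitotic 0.13 and wild-type endocycling 0.093. Wing discs had -0.034 in the null, -0.012 in Rif1PP1 and -0.054 in wild type. The endocycling null difference was therefore -0.20, the lowest of the named regions. The CG31323 region (-0.15 in Rif1 null endocycling and 0.038 in Rif1 null mitotic follicle cells) and the lama region of 9 windows on 3L (-0.22 and 0.009), the second of which was chosen after its values were seen, had the same order.

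In the Lar, spir, CenG1A and GluClalpha regions 1 or both mutants had little or no difference. In the Lar region (chr2L:19560001-19740000, 9 windows), which holds the receptor tyrosine phosphatase gene Lar and spi, the gene of an EGF receptor ligand, Rif1PP1 mitotic follicle cells had -0.077 and Rif1PP1 wing discs -0.027. Its Rif1PP1 difference of -0.050 was the lowest among regions of 5 or more windows, and no window was over 0.1 in either mutant. Rif1 null mitotic follicle cells had -0.011 and Rif1 null wing discs -0.083. The wild-type values were 0.094 (follicle) and -0.053 (wing). The spir region (chr2L:20310001-20540000, 12 windows), with the actin nucleator gene spir and the Arp2/3 subunit gene Arpc2, had differences of 0.003 in the null and -0.022 in Rif1PP1. In both regions mitotic follicle cells of the mutants had means near or below 0, while wild-type endocycling follicle cells had 0.13 (Lar) and 0.16 (spir).

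In the CenG1A region (chr2L:13810001-14010000, 11 windows) the mutant wing discs were earlier than wild type. It holds Sos, which encodes the exchange factor of Ras, and rk, which encodes the bursicon receptor. Rif1 null wing discs had 0.036 and Rif1PP1 wing discs 0.025, against -0.041 in wild-type wing discs, while mitotic follicle cells had 0.026 in the null, 0.11 in Rif1PP1 and 0.11 in wild type. The GluClalpha region on 3R (chr3R:19710001-19860000, 6 windows) had the lowest null difference of the larger regions, -0.019. It holds GluClalpha, a glutamate-gated chloride channel gene, and bnl, the gene of the FGF ligand Branchless. Wing discs there had 0.040 in the null, 0.045 in Rif1PP1 and -0.047 in wild type. In both regions the windows were chosen for low wild-type wing disc values. The part of this choice in the gap to the mutant wing discs was not tested. Such a gap was not particular to these regions. Wing discs in the CG31323 region had -0.033 in the null, 0.038 in Rif1PP1 and -0.11 in wild type. In the kuz, Lar and scrib regions null wing discs were later than wild type.

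**Figure D4:**
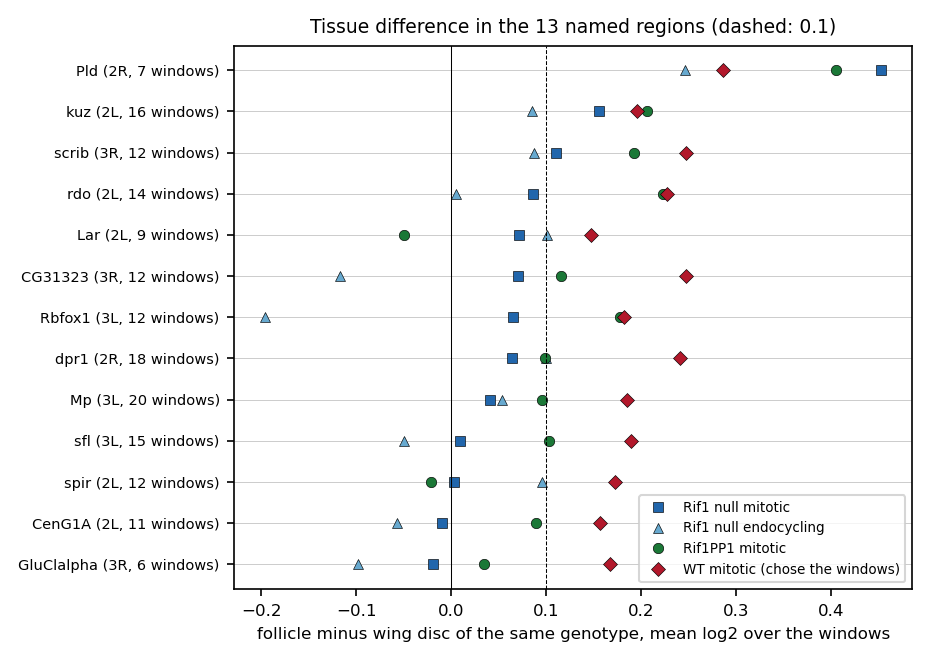
Mean difference between follicle cells and wing discs of the same genotype, in log2 units, in the 13 named regions, each labelled by its leading gene, arm and number of windows and ordered by the Rif1 null mitotic difference. The null mitotic difference ran from -0.019 in the GluClalpha region to 0.45 in the region after Pld, and the Rbfox1 region had the lowest null endocycling difference, -0.20.

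The region after Pld on 2R (chr2R:6250001-6470000, 7 windows) had the highest difference in both mutants. It takes in the end of Pld, a phospholipase D gene, stops before jing, a zinc finger gene that starts at 6502006, and holds the midpoint of no annotated gene. This gene desert between Pld and jing is known as the 42AB piRNA cluster, a source of small RNAs against transposons in the germline. Soft-masked repeats made up 47.8% of it, against 20.2% of the whole 2R scaffold. Windows there had mean values of 0.40 in Rif1PP1 and 0.42 in Rif1 null mitotic follicle cells, 0.22 in Rif1 null endocycling, 0.22 in wild-type mitotic and 0.17 in wild-type endocycling ones. Wing discs had -0.030 in the null, -0.005 in Rif1PP1 and -0.062 in wild type. All 7 windows were over 0.1 in both mutants, with mean differences of 0.45 in the null and 0.40 in Rif1PP1.

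The values changed abruptly along it. The chosen windows were 4 at one end and 3 at the other, and between them lay 6 windows that missed a limit. One of these, at chr2R:6330001-6430000, had the highest values of the stretch, 1.19 in Rif1 null mitotic, 1.18 in Rif1PP1, 0.66 in wild-type mitotic and 0.57 in heterozygous follicle cells, and missed the rule with 0.017 in wild-type wing discs. The window that starts 10 kb before it and shares 90 kb with it had 0.70, 0.70, 0.046 and 0.40. Heterozygous values were 0.18 to 0.30 in the first 4 chosen windows and -0.48 to -0.36 in the last 3. Reads were kept only above a mapping quality, and the part of repeats, mapping or strain differences in these values was not tested. Without the 7 windows the counts were 92 (32.3%) over 0.1 in the null and 173 (60.7%) in Rif1PP1, against 6.95% and 15.1% of all arm windows.

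**Figure D5:**
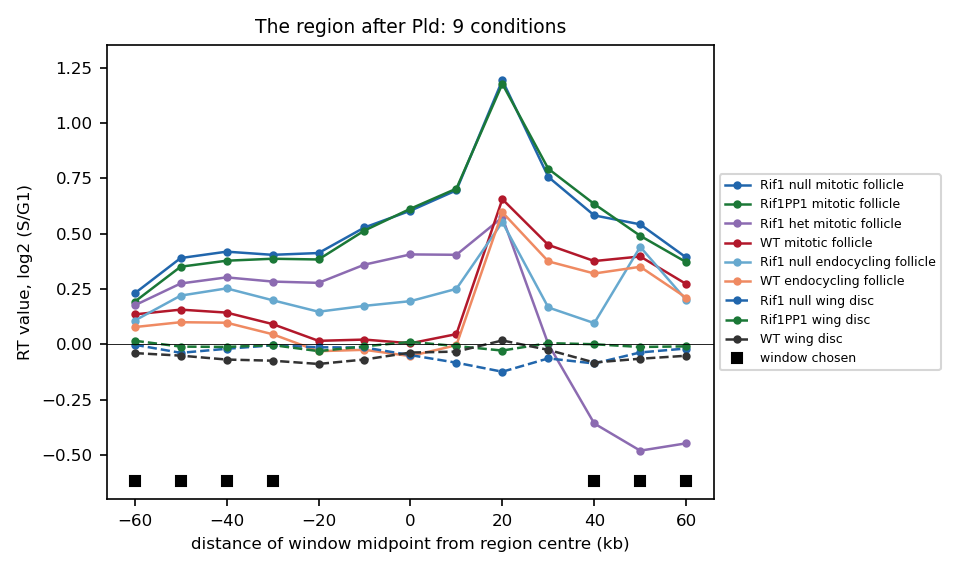
RT values, as log2 S/G1 ratios, of the 13 successive windows of the region after Pld against the distance of the window midpoint from the region centre in kb, with solid lines for follicle cells, dashed lines for wing discs and black squares for the 7 windows chosen. The mutant mitotic follicle cell lines peak at 1.19 and 1.18 while all wing disc lines stay near 0, and the heterozygous line ends below 0.

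The dpr1 region on 2R (chr2R:20660001-20960000, 18 windows) was the second longest by windows. It holds the immunoglobulin domain gene dpr1, the homeobox genes otp and Rx, and insc, needed for asymmetric neuroblast division. Rif1 null mitotic follicle cells had 0.031, Rif1 null endocycling ones 0.067, Rif1PP1 ones 0.069, heterozygous ones -0.049 and wild-type mitotic ones 0.14. Wing discs had -0.033 in the null, -0.029 in Rif1PP1 and -0.10 in wild type. No window passed 0.1 in the null mitotic difference and 6 did in Rif1PP1, while 11 did in the null endocycling difference.

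The windows were poorer in GC than the arms. Their median GC content was 41.6%, against 42.2% in windows early in both tissues, 43.2% in the mirror class and 42.7% in all arm windows. Of the arm windows with 40 to 42% GC, 5.27% were chosen, of those with 44 to 46%, 1.12%, and of those at 46% or more, 1 window. Profiles of both tissues themselves varied with GC: the median wild-type difference, follicle cells minus wing discs, was 0.030 at 40 to 42% GC and -0.064 at 46% or more. The kits of the 2 tissues differ, and their part in this was not tested. With the GC trend removed from every profile before the choice, 253 windows were chosen, 209 of them among the 292, and 32.4% of the 253 were over 0.1 in the null, against 6.66% of all arm windows, and 56.9% in Rif1PP1, against 14.8%.

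In gene content the windows were near the arms. They held a median of 10 protein-coding gene midpoints, against 12 in all arm windows, and genes covered a median of 74.4% of a window, against 76.6%. Late windows of both tissues held 6. The median share of soft-masked repeats was 16.8%, against 15.4% in all arm windows. The regions held 887 of 11186 protein-coding genes of the arms (7.93%) on 9.27% of the arm sequence. They held 121 of 1454 genes of at least 10 kb (8.32%), 71 of 738 of at least 20 kb (9.62%), 24 of 207 of at least 50 kb (11.6%) and 6 of 45 of at least 100 kb (13.3%). Within 250 bases before to 50 bases after the start, the DNA replication-related element TATCGATA, which is its own reverse complement, was present in 6.54% of the genes in the regions and in 8.66% of all arm genes. TATAAA, on either strand, was present in 48.8% and 46.4%. These matches describe letters only.

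Genes known for their roles in either tissue were looked up in the regions, which held 7.93% of protein-coding genes. None of 27 wing disc patterning genes on the arms (such as wg and vg) lay in them, and none of 12 follicle cell fate genes. Of 14 eggshell and yolk genes 2 did, Vm34Ca and ndl, and of 18 replication genes 2 did, CycE and Orc5, which encodes a subunit of the origin recognition complex. Orc5 lies at the edge of the CenG1A region, and the window nearest to it missed both limits, with 0.073 in wild-type mitotic follicle cells and -0.006 in wild-type wing discs. Among gene families, 8 of 51 odorant receptor genes, with the pseudogene Or98P among the 8, and 5 of 45 odorant-binding protein genes lay in the regions. So did 2 of 53 gustatory receptor genes, 2 of 72 cytochrome P450 genes, 19 of 192 miRNA genes and 34 of 264 tRNA genes. The share of protein-coding genes was 7.93%. Clustered copies weigh on such counts. All 5 odorant-binding protein genes (Obp57a to Obp57e) and 7 miRNA genes, mir-310 to mir-313 among them, came from the qsm region of 2 windows on 2R. Of the odorant receptor genes, 3 (Or33a to Or33c) came from the Pde1c region of 3 windows on 2L. On 3R, 1 window held 18 of the 34 tRNA genes. These counts were not tested against other sets of genes.

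The limits of the rule cut through a dense part of both profiles. The member with the lowest wild-type mitotic follicle cell value had 0.0778, and the highest value left out among windows that met the wing disc limit was 0.0777. The highest wild-type wing disc value inside was -0.0297, and the lowest outside, in a window that met the follicle cell limit, was -0.0290. Of the 292 windows, 182 lay within 0.02 of at least 1 limit, and 318 windows outside lay within 0.02 of being chosen.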

How the data were processed

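S phase and G1 nuclei of wing discs and S phase nuclei of follicle cells were sequenced. The authors aligned reads to dm6 (release 6.04) with Bowtie 2 2.3.2, kept reads above a mapping quality with SAMtools 1.9, took coverage per 100-kb window (10-kb slide), scaled it by depth, divided S phase by wing disc G1 and averaged the 2 replicates. The deposited values are log2 means, 1 per condition, before quantile normalization. Which G1 library served mutant wing discs is not given in the sources used here.

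Windows were selected with Python 3.11.15, numpy 2.4.6 and pandas 2.3.3, joined into regions where they overlapped, and compared with all arm windows by counts, medians and percentile ranks. GC content, repeats, genes and sequences came from RefSeq release 6 (dm6). Differences over 0.1 were counted, and no test was run. Named were the 10 regions with the most windows, the longest region of any arm not reached and, among regions of at least 5 windows, those with the highest and lowest mean difference in either mutant, with up to 6 of their longest genes and listed genes. The CycE region came from a gene list. The windows and lists were chosen with earlier results of these data known. The selection was tested on simulated data. RNA samples and 1 sample with conflicting labels were not used here.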

Additional observations from a re-analysis of the deposited data

How the results depend on the processing

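Of 12 alternatives 11 changed 1 choice and 1 changed both centring and scale. Of 76 recomputed values, 67 kept their sign and stayed within 1.5 times of the value reported. None changed sign, but counts and percentages cannot do so. Quantile normalization, centring and scaling keep the order of windows within a profile. The 292 windows, 53 regions and 88.7% in the top quartile of wild-type endocycling follicle cells could therefore not change under them. These fixed values are among the 67, so that number overstates how much was tested. Limits at the 80th and 20th percentiles gave 153 windows (1.70% of arm windows) in 33 regions, and limits at the 70th and 30th gave 481 windows (5.36%), since fewer or more windows can pass. Every 10th window of each arm, without overlap, gave 27 windows in 27 regions. Of these, 6 (22.2%) were over 0.1 in the Rif1 null difference, against 7.0% of the 900 arm windows taken in this way. Scaling to the same SD after centring gave 59.6% over 0.1 in the null, against 18.0% of all arm windows, and a median null difference of 0.13. A threshold of 0.2 left 19 windows (6.51%) in the null and 69 (23.6%) in Rif1PP1, against 0.869% and 3.46% of all arm windows. Quartiles within each arm gave 285 windows, of which 206 were shared. Leaving out the 7 windows of the region after Pld was chosen after seeing the data. No paired analysis was possible because the table holds only means over replicates, and leaving out a replicate was not possible for the same reason. Read depth per window is unknown, so precision cannot be given.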
